A study of Homo sapiens with 40 samples.

Results

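The SERINC family consists of 5 genes, SERINC1 to SERINC5, out of the 60279 genes counted in single T47D cells. The family was picked from the measured values, because SERINC5 had far more reads in the cells of one protocol (NEB) than in those of the others (G&T and Takara). The level of SERINC5 in NEB is therefore a description, and nothing below rests on it as a test. SERINC1, SERINC2, SERINC3 and SERINC5 had reads, and SERINC4 had none in any cell.

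T47D is a luminal breast cancer cell line, and all 40 cells were of passage 10 and were sorted as EpCAM+/CD49f+ single cells. Whether these cells came from 1 culture was not established here. They were processed with G&T (13 cells), Takara SMART-seq HT (13 cells) or NEBNext Single Cell/Low Input (14 cells), and 11 cells of each protocol passed the quality thresholds. All cells were untreated, all carried ERCC spike-ins, and all cDNA was primed with oligo-dT. The template-switching oligo of G&T and Takara carries a locked nucleic acid and that of NEB does not, and NEB also differed in its final library kit and number of PCR cycles. The cells of a protocol shared a plate and a run, so that protocol, kit and run cannot be told apart. A protocol is therefore 1 sample, and no test between protocols was made.

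SERINC proteins are membrane proteins that cross the lipid bilayer many times. They were named serine incorporators after a proposed role in bringing serine into phosphatidylserine and sphingolipids, and members have since been shown to scramble lipids between the leaflets of a membrane. SERINC5 and SERINC3 are best known as restriction factors: they enter budding HIV-1 particles and lower their infectivity, and the viral Nef protein counters them by removing them from the cell surface through the AP-2 clathrin adaptor. Members of the family are expressed in many tissues.

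The reads on genes ranged from 658154 to 1166633 per kept G&T cell, from 818512 to 1287911 per Takara cell and from 624772 to 963816 per NEB cell. Between 4416 and 6719 genes had a read in an NEB cell, against 9541 to 12794 in G&T and 10624 to 11855 in Takara. ERCC spike-ins took 5.66% to 18.9% of the library in NEB cells, 1.37% to 2.75% in G&T and 0.538% to 1.33% in Takara. All 8 luminal epithelial markers had reads in each protocol, while the 4 leukocyte markers summed to between 4.51 and 8.96 CPM and the 3 endothelial markers to at most 2.95 CPM. The luminal markers summed to 3930 CPM pooled over NEB cells, below the 9710 CPM of G&T and the 17244 CPM of Takara. The 6 fibroblast and basal markers summed to 28.8 CPM with NEB (0 to 128 CPM in a cell), 14.0 CPM with G&T and 14.9 CPM with Takara, and their part in the SERINC levels was not tested. Levels are given as CPM, the reads of a gene scaled to the same total of reads on genes, either in a cell or pooled over the 11 kept cells of a protocol. Intervals are exact 95% Poisson intervals of the pooled reads and cover counting error only, since the reads carry no molecular identifiers.

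The transcripts of the 4 genes with reads differ in length, base composition and runs of A, and these features are shown because the 3 protocols prime cDNA with oligo-dT. In the canonical transcripts of GENCODE release 44 on GRCh38, SERINC5 is 6448 bases long with a 3′ UTR of 4936 bases, SERINC3 4396 bases, SERINC1 3125 bases and SERINC2 1900 bases. The median protein-coding transcript has 2885 bases. GC content is 63.0% for SERINC2, against 38.3% for SERINC1, 42.6% for SERINC3, 44.9% for SERINC5 and a median of 49.2%. The longest run of A has 13 bases in SERINC3, 11 in SERINC5, 7 in SERINC1 and only 3 in SERINC2. Runs at least as long occur in 11.2%, 15.3%, 45.7% and 99.8% of 20046 canonical protein-coding transcripts. The windows of 30 bases around these runs follow on the transcript strand, with the run in capitals. They lie in the 3′ UTR at chr20:44499891-44499920 (SERINC3), chr5:80143518-80143547 (SERINC5) and chr6:122444002-122444031 (SERINC1), and in the coding part at chr1:31429397-31429426 (SERINC2).
SERINC3: ttaaaagcAAAAAAAAAAAAAtgcatttat
SERINC5: ttgagagagAAAAAAAAAAAtctcctgatt
SERINC1: cagagtaagacAAAAAAAtatatatatatt
SERINC2: aacagAAAtgcaacccccatttgccaaccc

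The run in SERINC5 lies 4801 bases before the annotated end of the transcript, that in SERINC3 2459 bases, that in SERINC2 968 bases and that in SERINC1 663 bases. Each of the 4 transcripts also holds AATAAA, the common poly(A) signal, in its last 40 bases on the transcript strand, as do 62.1% of all canonical protein-coding transcripts. The 3′ ends are shown from 2 bases before the signal, which is in capitals, at chr5:80138728-80138757 (SERINC5), chr20:44497441-44497469 (SERINC3), chr6:122443351-122443372 (SERINC1) and chr1:31434652-31434678 (SERINC2). The count tables do not hold where in a transcript reads began, so priming at these places was not tested.
SERINC5: caAATAAAagatatatatctgtggtgtgca
SERINC3: ccAATAAAgtttttatttttttctcatga
SERINC1: taAATAAAtgaattcagagaaa
SERINC2: ctAATAAAcaagccagtgcgtgtacca

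SERINC5 was abundant in every NEB cell and close to the limit of detection in the others. SERINC5 (ENSG00000164300; chr5:80111651-80256048, minus strand) had 3927 reads over the 11 NEB cells, 82 over those of G&T and 65 over those of Takara. The NEB cells had a lowest level of 206 CPM, a median of 486 CPM and a highest level of 927 CPM. In G&T cells SERINC5 lay at 0 CPM in the lowest cell, 5.23 CPM at the median and 23.9 CPM in the highest. In Takara cells the lowest, median and highest levels were 0, 5.16 and 14.7 CPM. The lowest NEB cell was thus above the highest cell of both other protocols. Over all genes, 121 of 15383, or 0.787%, had every NEB cell above every G&T and Takara cell.

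Pooled over cells, the SERINC5 level of NEB was 492 CPM (477 to 508), that of G&T 8.63 CPM (6.86 to 10.7) and that of Takara 5.55 CPM (4.28 to 7.07). The NEB level was 88.8 times the Takara level (69.5 to 115) and 57.1 times the G&T level (45.9 to 71.9). On the log2 scale, with 1 CPM added, these ratios were 6.24 and 5.68, while the larger SD of log2(CPM + 1) over cells was 1.10 for the first pair and 1.34 for the second. No gene of 13532 had a larger ratio of NEB over Takara, and 3 of 14795 had a larger ratio of NEB over G&T. By pooled CPM, SERINC5 ranked 328th of the 12479 genes with reads in NEB, but 8689th of 22428 for G&T and 9367th of 18015 for Takara.

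SERINC5 was nevertheless detected in most G&T and Takara cells, from few reads per cell. The gene had a read in 10 of 11 cells of each protocol (90.9%, exact binomial interval 58.7% to 99.8%), with a median of 5 reads per G&T cell and 6 per Takara cell. At 5 or more reads it was present in 7 cells of each. G&T over Takara gave a pooled ratio of 1.56 (1.11 to 2.19), or 0.56 on the log2 scale, which was within the SD over cells of 1.34. In NEB it had between 147 and 629 reads per cell. Of the 1388 genes with a read in all 11 NEB cells, 32 were under 10 CPM in both other protocols, and SERINC5 was the most abundant of these 32 in NEB.

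**Figure D1:**
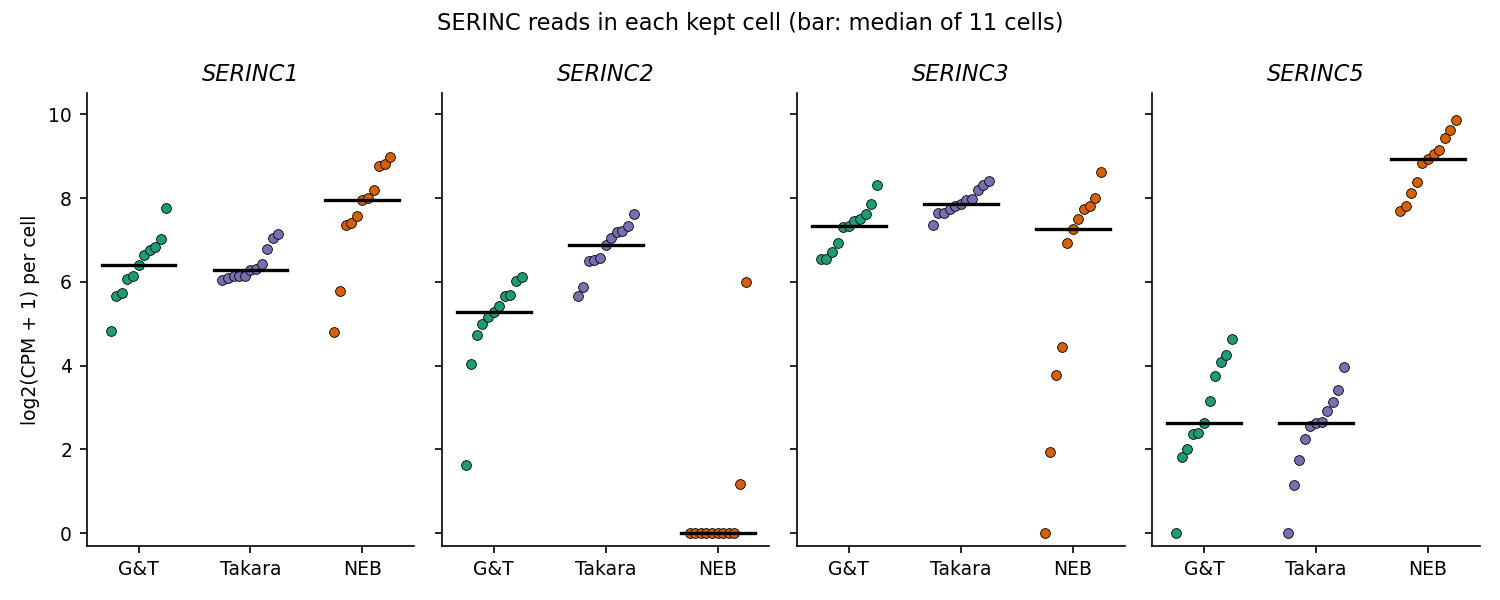
Levels of the 4 SERINC genes with reads in each kept cell, as log2(CPM + 1), by protocol; each point is 1 cell and the bar is the median of 11 cells. SERINC5 lies at 206 to 927 CPM in NEB against at most 23.9 CPM elsewhere, while SERINC2 is at 0 in 9 NEB cells.

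The genes on either side of SERINC5 had next to no reads. THBS4, the nearest protein-coding gene on one side, which encodes a secreted thrombospondin, had 1 read in Takara and 0 in the other protocols. SPZ1, the nearest protein-coding gene on the other side, and the long non-coding RNA ENSG00000251675 on the opposite strand within SERINC5 had 0 reads in all 33 kept cells. With 3 reads as the limit of a count of 0, levels up to 0.376 CPM in NEB would go undetected. Whether the reads fell on exons at one end of SERINC5 was not tested, since the tables give 1 count per gene.

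The genes whose CPM was most like that of SERINC5 over the 33 kept cells also had their highest pooled level in NEB. Among 12233 genes with reads in at least 8 cells, the highest Spearman's rho was 0.84 for MIDEAS, a scaffold of a histone deacetylase complex. It was followed by TRIM59, a RING-finger protein (0.81), RDX, or radixin, which ties actin to the membrane (0.80), YWHAE, the 14-3-3 epsilon protein (0.80), and STRN3, a striatin (0.79). These 33 points share the difference between protocols, and within the NEB cells alone rho with SERINC5 ranged from -0.38 for TRIM59 to 0.62 for STRN3. The pooled MIDEAS level was 829 CPM for NEB, 41.6 CPM for G&T and 29.8 CPM for Takara. SERINC1 came 488th in this order (rho 0.50), while SERINC3 (-0.27) and SERINC2 (-0.66) had negative values over the 33 cells. Within the G&T, Takara and NEB cells alone, SERINC3 had a rho with SERINC5 of 0.36, -0.31 and -0.24. SERINC2 had one of -0.59, 0.39 and 0.39 in that order, the last with reads in only 2 NEB cells.

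SERINC1, the member with reads in all 33 kept cells and a high level in each protocol, stood higher in NEB when counted per read on genes. SERINC1 (ENSG00000111897; chr6:122443351-122471807, minus strand) had lowest, median and highest levels of 27.0, 246 and 501 CPM in NEB cells. The corresponding levels were 27.2, 83.6 and 215 CPM in G&T and 65.5, 77.4 and 140 CPM in Takara. The NEB cells spanned the range of both other protocols, with 9 of 11 above the highest Takara cell and 2 below the lowest. The NEB mean was 253 ± 157 CPM, the G&T mean 91.96 ± 51.1 and the Takara mean 87.6 ± 27.0 (SD over the 11 cells of 1 run).

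The pooled SERINC1 level of NEB was 254 CPM (243 to 265), that of G&T 89.6 (83.7 to 95.8) and that of Takara 87.6 (82.3 to 93.1). NEB was 2.90 times Takara (2.69 to 3.13) and 2.83 times G&T (2.61 to 3.07) per read on genes, but 0.215 and 0.418 times when counted per ERCC read, so the direction depends on the scale. The log2 ratios of 1.52 and 1.49 exceeded the SD over NEB cells of 1.29. G&T over Takara was 1.023 (0.933 to 1.12) per read on genes, no difference beyond counting error, but 0.513 per ERCC read. The overlapping pseudogene ENSG00000275339 had 0 reads in all 3 protocols.

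SERINC2, the member for which the least antiviral activity has been described, was the reverse of SERINC5 in its order of levels. SERINC2 (ENSG00000168528; chr1:31409565-31434680, plus strand) was highest in Takara, with lowest, median and highest levels of 50.1, 118 and 197 CPM. In G&T the corresponding levels were 2.09, 37.8 and 68.4 CPM. In NEB 9 of 11 cells had 0 reads, 1 cell had 1 read and cell C1 had 41 reads, or 62.8 CPM. NEB cell C1 lay inside the ranges of G&T and Takara, and the other 10 NEB cells lay below every cell of both.

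The pooled SERINC2 level of Takara was 118 CPM (112 to 124), that of G&T 37.4 (33.6 to 41.5) and that of NEB 5.27 (3.796 to 7.12). Takara was 22.4 times NEB (16.5 to 31.2) and G&T was 7.09 times NEB (5.14 to 10.0). Cell C1 held 97.6% of the SERINC2 reads of NEB, and without it the pooled level was 0.137 CPM, below the limit of 0.376 CPM that 3 reads set. G&T and Takara differed by more than the spread over cells: Takara was 3.16 times G&T (2.81 to 3.56), the log2 ratio of G&T over Takara was -1.63 and the larger SD over cells was 1.26. In this pair 8 of 11 G&T cells lay below the lowest Takara cell. Of its neighbours, TINAGL1 on the same strand, which encodes a secreted matrix protein, had 353 Takara reads, 51 G&T reads and 0 NEB reads. FABP3, a fatty acid-binding protein gene on the other side, had at most 4 reads in a protocol.

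SERINC2 had a read in 11 of 11 cells of G&T and Takara (exact binomial interval 71.5% to 100%) and in 2 of 11 NEB cells (18.2%, 2.28% to 51.8%). Thinning every cell to 624772 reads on genes, the smallest kept cell, gave expected numbers of 10.9, 11 and 1.79 cells for G&T, Takara and NEB. Of the 4875 genes with a read in all 22 G&T and Takara cells, 630, or 12.9%, had a read in 2 or fewer NEB cells. SERINC1 belonged to the 26.4% of these genes with a read in all NEB cells, and SERINC3 to the 37.2% with a read in at least 10.

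SERINC3, an antiviral member like SERINC5, had reads in every G&T and Takara cell and in 10 of 11 NEB cells. Its level varied widely from one NEB cell to the next. SERINC3 (ENSG00000132824; chr20:44496221-44522085, minus strand) had lowest, median and highest levels of 0, 152 and 395 CPM in NEB. They were 92.3, 160 and 317 CPM in G&T and 164, 232 and 337 CPM in Takara. In NEB, 4 cells lay between 0 and 20.6 CPM and 7 between 121 and 395 CPM, so the highest NEB cell exceeded, and the lowest fell short of, all cells of the other protocols. The coefficient of variation over cells was 88.7% for NEB, 40.2% for G&T and 22.04% for Takara. For genes of 100 to 1000 CPM its median was 67.8%, 46.6% and 29.97%. The NEB quartiles of these genes were 50.2% and 90.1%, and the NEB value of SERINC3 lay between them.

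The pooled SERINC3 level of Takara was 242 CPM (233 to 251), that of G&T 163 (155 to 171) and that of NEB 139 (131 to 147). NEB over Takara was 0.575 (0.536 to 0.616) and NEB over G&T 0.853 (0.789 to 0.922). On the log2 scale these ratios per read on genes were -0.80 and -0.23, well within the SD over NEB cells of 2.86. Counted per ERCC read, NEB was 0.0425 times Takara and 0.126 times G&T, or -4.56 and -2.99 on the log2 scale. The size of the difference thus depends on the scale. G&T over Takara per read on genes was 0.674 (0.633 to 0.717), or -0.57 on the log2 scale, about equal to the larger SD over cells of 0.55. Per ERCC read it was 0.338. SERINC3 ranked 781st of 18015 genes by pooled CPM for Takara, 983rd of 22428 for G&T and 1399th of 12479 for NEB.

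SERINC4 (ENSG00000184716; chr15:43794162-43800220, minus strand) had 0 reads in all 40 deposited cells. The limits set by 3 reads were 0.316 CPM (G&T), 0.256 CPM (Takara) and 0.376 CPM (NEB). SERINC4 lies across from SERF2, a small protein gene on the opposite strand with pooled levels of 922 CPM (G&T), 807 CPM (Takara) and 364 CPM (NEB), and it also overlaps HYPK and the same-strand gene ENSG00000262560, which had 0 reads. Reads that overlap more than one gene were set aside as ambiguous in these counts, at a median of 8.31% (G&T), 10.6% (Takara) and 5.67% (NEB) of all reads of a cell. How many of them fell on SERINC4 cannot be read from the tables, so 0 reads is no measure of its absence.

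The make-up of the SERINC reads differed between protocols. SERINC3 gave 54.6% of the family's 2835 reads in G&T and 53.4% of its 5304 reads in Takara, but 15.6% of its 7099 reads in NEB. SERINC5 gave 2.89% and 1.23% in G&T and Takara and 55.3% in NEB. SERINC1 gave a share of 30.02%, 19.3% and 28.5% in the order G&T, Takara, NEB, and SERINC2 gave 12.5%, 26.1% and 0.592%. SERINC3 had the most reads of the family in 10 G&T and all 11 Takara cells, and SERINC1 in the remaining G&T cell, A2. In NEB, SERINC5 had the most reads in 10 cells, with a tie with SERINC3 in cell A1, and SERINC3 led in cell D2.

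**Figure D2:**
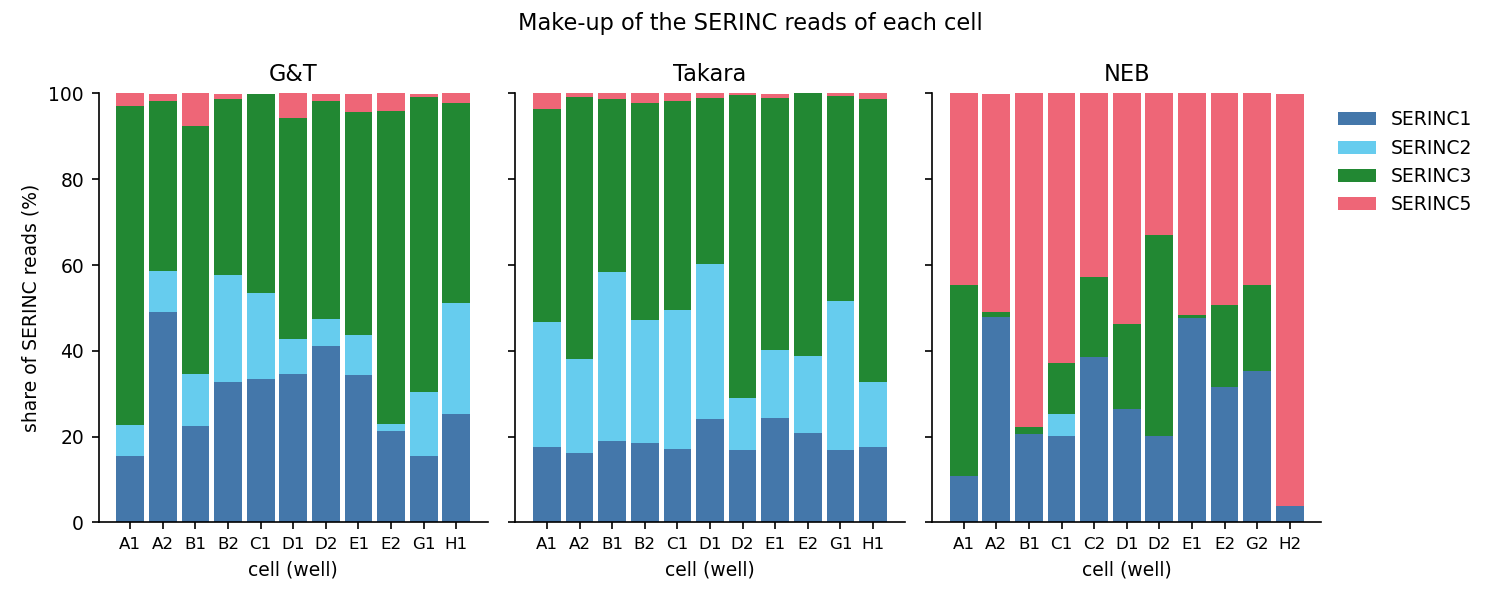
Share of each SERINC gene in the SERINC reads of each kept cell (percent, stacked to 100), by protocol, with wells on the horizontal axis. SERINC5 takes 33.03% to 96.3% in NEB cells and at most 7.69% in G&T and 3.66% in Takara cells, and SERINC3 falls to 0% in NEB cell H2.

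Longer transcripts give more fragments, so the shares of reads above describe the libraries, and levels of different members were compared per length. In CPM per kb of merged exons, NEB had SERINC1 at 81.2, SERINC5 at 51.6, SERINC3 at 29.9 and SERINC2 at 1.53. Takara had SERINC3 at 52.0, SERINC2 at 34.2, SERINC1 at 28.0 and SERINC5 at 0.582, and G&T had SERINC3 at 35.0, SERINC1 at 28.7, SERINC2 at 10.8 and SERINC5 at 0.905. Per kb SERINC1 rather than SERINC5 was therefore the leading member in NEB. With the length of the canonical transcript in place of merged exons, SERINC1 (81.2 CPM per kb) and SERINC5 (76.4) were close in NEB. On that length SERINC2 (62.1) rather than SERINC3 (55.0) led in Takara, while SERINC3 (37.0) still led in G&T, ahead of SERINC1 (28.7) and SERINC2 (19.7). The share of SERINC5 in the family's NEB reads was 31.4% per kb of merged exons, against 49.4% for SERINC1.

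Cells differed between protocols in how many members they captured together. Reads of 4 members were found in 10 of 11 cells in G&T and in 10 of 11 in Takara, the remaining cell of each having 3. In NEB, 2 cells had 4 members, 8 had 3 and 1 had 2, the last being cell H2 with SERINC1 and SERINC5 only. The family as a whole reached 890 CPM with NEB (870 to 911), 453 with Takara (441 to 465) and 298 with G&T (288 to 310). Per 10000 ERCC reads NEB moved from first to last, with 467 Takara reads, 154 G&T reads and 68.0 NEB reads.

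Within a protocol the relations between members were mostly weak and of either sign over its 11 cells, which share a run and differ in depth. Spearman's rho between SERINC1 and SERINC5 was 0.18 over G&T cells, 0.33 over Takara cells and 0.30 over NEB cells. SERINC3 and SERINC5 had a rho of 0.36, -0.31 and -0.24 in the same order. The strongest relation between members was that of SERINC2 and SERINC3 in Takara, with rho -0.74 (Pearson's r -0.66), and -0.78 without the 2 cells farthest from the median. The same pair had a rho of -0.07 in G&T. Against the ERCC share of a cell, SERINC3 had a rho of -0.85, -0.29 and 0.21 in that order, and SERINC5 one of -0.30, -0.06 and 0.30. These are descriptions of 11 cells each.

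Set among all genes, the ratios of SERINC3 lay within the bulk and those of SERINC2 towards the lower end. The ratio of SERINC1 lay towards the upper end in both NEB pairs and within the bulk in G&T over Takara. In NEB over Takara, 2 of the 4 members with reads were at least 2-fold higher (SERINC1 and SERINC5), beside 24.3% of 13532 genes with at least 1 CPM in either protocol, and 1 was at least 2-fold lower (SERINC2), beside 43.7%. In NEB over G&T the same 2 were higher, beside 19.5% of 14795 genes, and SERINC2 was lower, beside 48.7%. The choice of SERINC5 used these contrasts, and nothing is read from the counts. In G&T over Takara no member was at least 2-fold higher, beside 25.7% of 14658 genes, and SERINC2 was lower, beside 17.0%, a share near that of 1 in 4 members. SERINC4 did not pass the limit of 1 CPM in any pair. The median log2 ratio of all genes was -0.56 for NEB over Takara, -0.92 for NEB over G&T and 0.16 for G&T over Takara. SERINC1 was exceeded by 2061 genes in NEB over Takara, and 795 genes had a lower ratio than SERINC2. In NEB over G&T these numbers were 1803 and 2371.

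**Figure D3:**
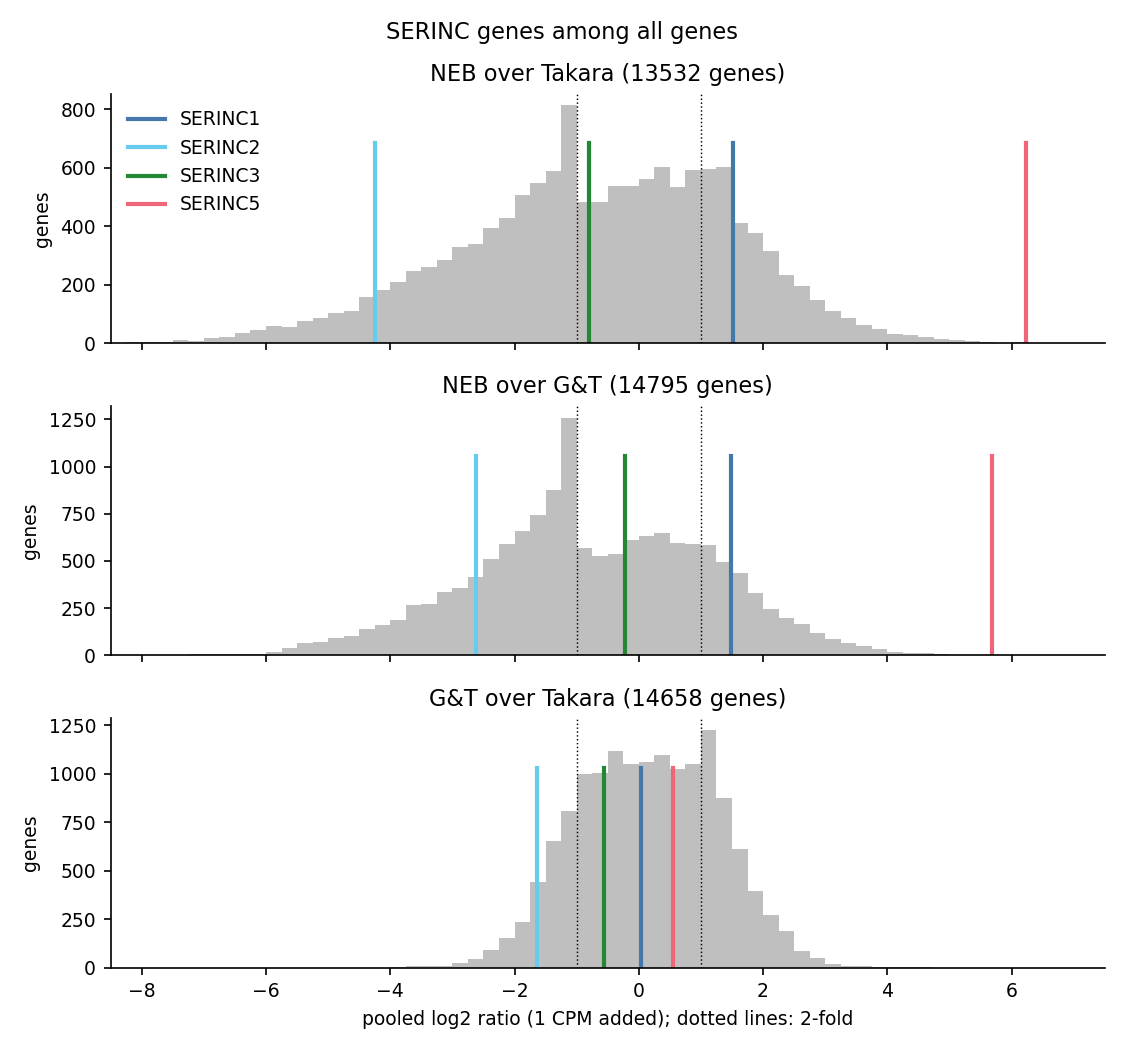
Number of genes by pooled log2 ratio (1 CPM added, bins of 0.25) for the 3 pairs of protocols, with the 4 SERINC genes as coloured lines and dotted lines at a 2-fold difference. SERINC5 lies at the right end at 6.24 and 5.68 in the NEB panels and at 0.56 in the third, and SERINC2 lies left of the other members at -4.25, -2.61 and -1.63.

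The scale on which protocols are compared moved every SERINC ratio. Takara had 103 reads on genes per ERCC read, G&T 51.8 and NEB 7.64, so that counting per ERCC read shifted log2 ratios, before 1 CPM is added, by -3.76 for NEB over Takara and by -2.76 for NEB over G&T. On that scale SERINC5 was still higher in NEB, at 6.57 times Takara and 8.42 times G&T, and had 37.6 reads per 10000 ERCC reads with NEB, 5.72 with Takara and 4.47 with G&T. SERINC1 was lower in NEB on that scale, as given above. SERINC2 and SERINC3 were lower in NEB on both scales.

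**Figure D4:**
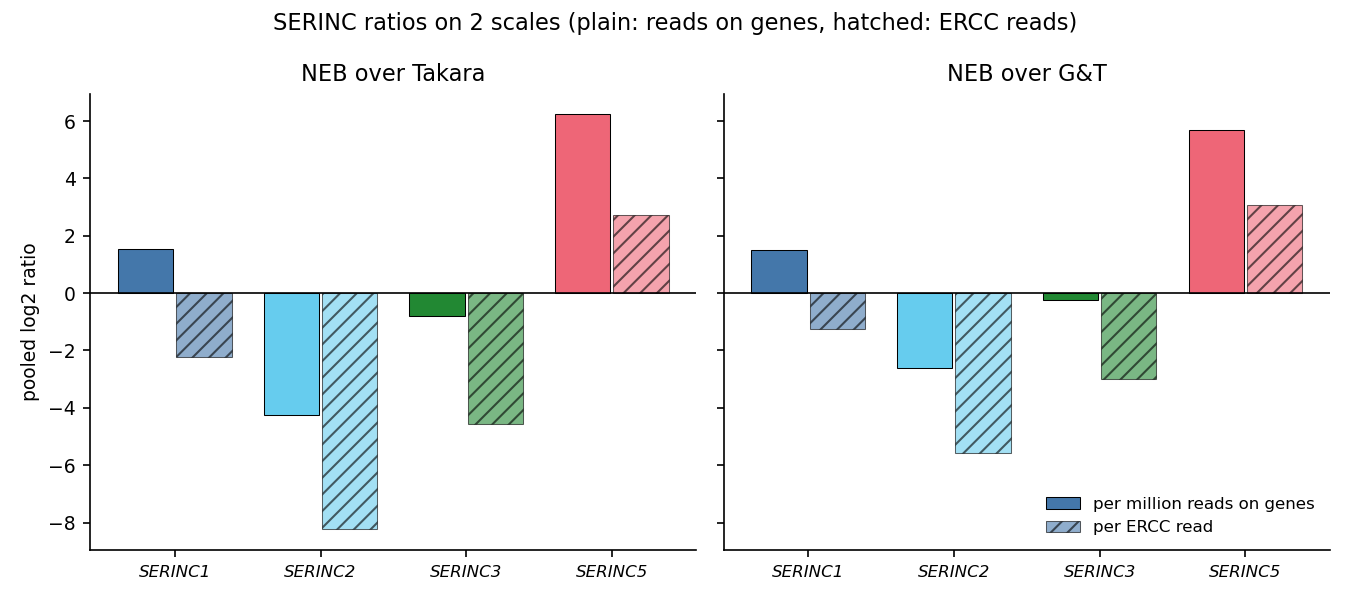
Pooled log2 ratios of the SERINC genes in NEB over Takara (left) and NEB over G&T (right), as CPM (plain bars, 1 CPM added) and per ERCC read (hatched bars). SERINC5 is above 0 on both scales (6.24 and 2.72 over Takara), SERINC2 and SERINC3 are below 0 on both, and SERINC1 changes sign (1.52 and -2.22 over Takara).

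Genes that act in the processes named for the SERINC proteins were described from 5 lists. Of 10 genes for serine synthesis and use, 9 were at least 2-fold lower in NEB than in Takara and none was 2-fold higher, with a median log2 ratio of -2.71. The lowest was SLC3A2, the heavy chain of amino acid transporters and also the most abundant of the list, at 26.6 CPM with NEB, 489 with Takara and 369 with G&T. SRR, which converts L-serine to D-serine, had the highest ratio, at 30.5, 17.7 and 3.68 CPM in the same order.

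Of 18 genes for phosphatidylserine and sphingolipid synthesis over the limit of 1 CPM, 2 were higher and 9 lower in NEB than in Takara, with a median of -1.26. SPTSSB, a small subunit of serine palmitoyltransferase, the enzyme that joins serine to a fatty acid in the first step of sphingolipid synthesis, was the most abundant and had the highest ratio. It stood at 793 CPM with NEB, 247 with Takara and 62.5 with G&T. CERS2, a ceramide synthase for very long acyl chains, was at the other end at 5.89, 153 and 27.9 CPM in that order.

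Lipid scramblases have the membrane activity also described for SERINC proteins, and they were listed together with flippases. This list was split at the limit of 1 CPM: 5 of 14 genes were higher and 5 lower in NEB than in Takara. The median was 0.67 beside -0.56 over all genes. At a limit of 10 CPM, 5 of 10 were higher and 2 lower, with a median of 1.05 beside -0.38 over all genes. At that limit 4 of 10 were higher and 0 lower in NEB than in G&T. Over all genes at 10 CPM, 25.6% were higher and 40.3% lower in NEB than in Takara. The shares were 23.0% and 39.6% for NEB over G&T, and nothing particular to this list was tested. VMP1, a scramblase of the endoplasmic reticulum, was the most abundant at 489 NEB CPM, 247 Takara CPM and 165 G&T CPM. XKR8, the scramblase of apoptotic cells, had 0 reads in NEB and 6.91 CPM in Takara.

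Of 11 other retrovirus restriction factors over the limit, 1 was higher and 4 were lower in NEB than in Takara, and the median was -0.19. BST2, or tetherin, which holds budding virions on the cell, was the most abundant and had the lowest ratio, with 147 NEB CPM, 568 Takara CPM and 346 G&T CPM. IFITM3, which blocks viral fusion, had the highest ratio, at 8.28, 2.39 and 3.89 CPM in that order, with reads in 2 NEB cells.

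The 5 subunits of the AP-2 adaptor, through which Nef removes SERINC5 from the cell surface, were all at least 2-fold lower in NEB than in Takara (4 of 5 with TMM factors), with a median of -2.49. AP2M1, the cargo-binding subunit, stood at 1285 CPM with Takara, 129 CPM with NEB and 371 CPM with G&T. AP2S1, the small subunit, was nearest to 2-fold with a log2 ratio of -1.001, and AP2A1, a large subunit, was lowest with 0.251 CPM in NEB from 2 reads. In NEB over G&T, 1 gene for serine synthesis and use was higher and 9 were lower, 6 and 9 of the sphingolipid list, 4 and 4 of the scramblases and flippases, 1 and 4 of the restriction factors, and 0 and 5 of AP-2. The list counts stand beside 24.3% higher and 43.7% lower of all genes in NEB over Takara, and 19.5% and 48.7% in NEB over G&T, and nothing particular to a list follows from them.

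**Figure D5:**
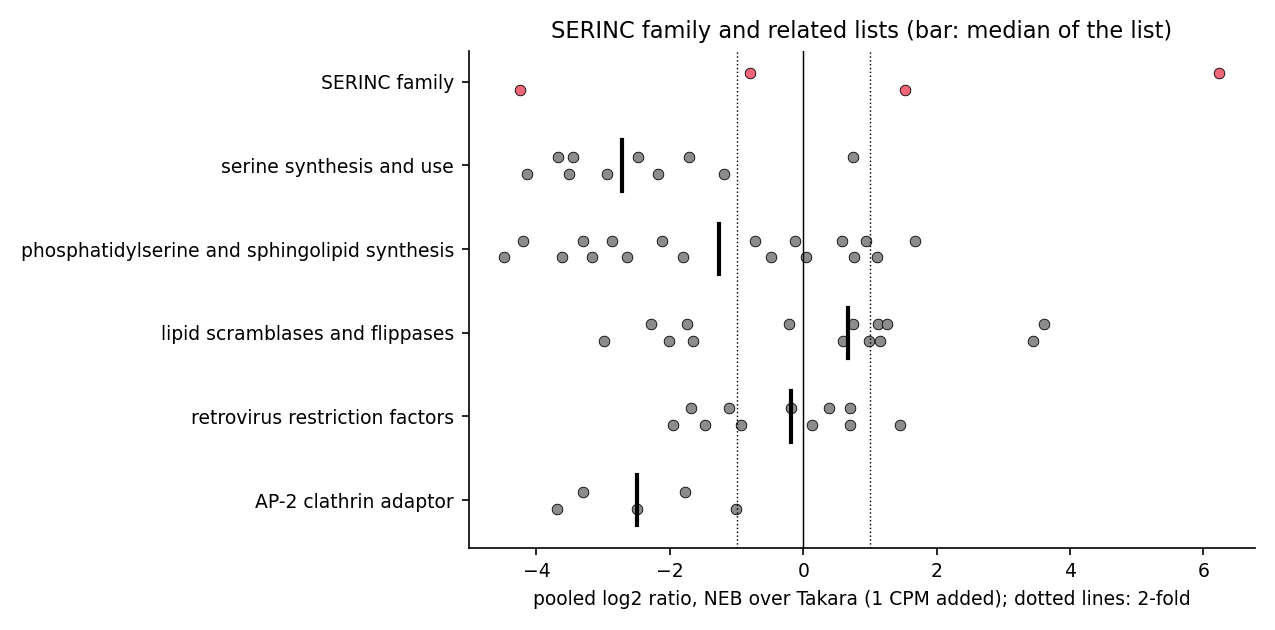
Pooled log2 ratio of NEB over Takara (1 CPM added) for the 4 SERINC genes with reads and for each gene of the 5 related lists over 1 CPM in either protocol; each point is 1 gene, black bars are list medians and dotted lines mark a 2-fold difference. The SERINC genes span -4.25 to 6.24, and the list medians lie between -2.71 and 0.67.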

How the data were processed

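The authors trimmed the reads with Trim Galore, checked them with FastQC, ran STAR against GRCh38 and deposited its raw read counts per gene, in a table for each protocol, without normalization or filter. The annotation release and the strand setting of the counts are not given in the sources used here. Each table lists 60279 genes, 4 kinds of unassigned reads and 92 ERCC controls. The members and lists were chosen with earlier results of these data known.

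Cells were kept with at least 1000 genes, a library (genes and ERCC) of at least 600000 reads, at most 30% mitochondrial and at most 25% ERCC reads, which left 33 of 40. Pooled CPM is the sum of reads over kept cells in CPM of the reads on genes. Log2 ratios used 1 CPM added, and genes with under 1 CPM in both protocols were left out. A read is detection, and 3 reads were taken as the limit of a count of 0. GENCODE release 44 matched 56104 genes. Beside the SERINC genes, the text names by rule the most abundant, highest and lowest gene of each list, the 5 genes most like SERINC5 and neighbouring genes. A gene this rule names is not reported here. The ratio was also computed on simulated counts with counting error only, no variation between cells, and changes set in 200 well-expressed genes. The estimate was close to the set change for 96.5% of them for NEB over Takara, 94.5% for NEB over G&T and 95.5% for G&T over Takara. These rates check the calculation and are no measure of accuracy on the real cells, which vary more. Protein sequences were not analysed here. Python 3.11.15 (numpy 2.4.6, pandas 2.3.3, scipy 1.17.1, matplotlib 3.10.9), R 4.3.3 and edgeR 4.0.16 (TMM factors only) were used.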

Additional observations from a re-analysis of the deposited data

Results flagged for a closer look

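SERINC reads were also present in cells left out of the comparisons, above the limit of 3 reads that a count of 0 allows. SERINC5 had 466 reads in NEB cell B2, left out for its ERCC share of 28.4%, and 209 reads in NEB cell F2, whose library was too small. At 1034 and 380 CPM, one lay above and the other within the range of the kept NEB cells. In the same cells SERINC3 had 12 reads (B2) and 11 reads (F2), and SERINC1 had 111 reads in F2 and 0 in B2. In G&T cell C2, left out for 33.7% mitochondrial reads, SERINC1 had 41 reads, SERINC2 36 and SERINC3 68, while SERINC5 had 1. In G&T cell F1, with a library under 600000 reads, SERINC1 had 95 reads, SERINC2 20, SERINC3 89 and SERINC5 0. The Takara cells C2 and F1 and the NEB cell F1, with ERCC shares of 91.3%, 96.7% and 99.7%, had 0 reads on the family.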

How the results depend on the processing

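Per ERCC read, the log2 ratio of SERINC1 reversed, to -2.22 for NEB over Takara and -1.26 for NEB over G&T. On that scale SERINC5 stood at 2.72 and 3.07, SERINC2 at -8.24 and -5.59 and SERINC3 at -4.56 and -2.99 in the same pairs. With the median of cells, SERINC2 stood at -6.89 over Takara and -5.28 over G&T. Leaving out 1 cell at a time, the SERINC2 ratio ranged from -6.71 to -4.09 over Takara and from -5.08 to -2.46 over G&T, the lowest being without NEB cell C1, and the SERINC5 ratio ranged from 6.11 to 6.41 and from 5.54 to 5.98. With 10 CPM added, SERINC5 over Takara was 5.01. At 5 reads, 1 NEB cell had SERINC2. Per kb, SERINC5 gave 31.4% of the family's NEB reads. TMM factors, using all 40 cells, leaving out mitochondrial genes, dividing by library size and taking the mean of cells moved no SERINC ratio by more than the SD over cells. TMM moved the median ratio of all genes in NEB over G&T from -0.92 to -0.83. Without a filter on low values, 12.4% of genes were higher and 30.9% lower in NEB over G&T, and 15.2% and 10.0% in G&T over Takara. At 10 CPM, 19.0% were higher and 20.4% lower in G&T over Takara. Of the 60 alternatives for the list counts, 8 moved by over 1.5 times, all on scramblases and flippases or restriction factors. Pooled levels per ERCC read are in another unit and were not set against CPM. No paired analysis was possible because the wells pair no cells across protocols and no test was made. The SERINC2 level in NEB rests on few reads, since the kept cells other than C1 together held 1 read. With every cell thinned to the smallest kept cell, SERINC2 was expected in 10.9 G&T, 11 Takara and 1.79 NEB cells. The cause of the low SERINC2 counts in NEB was not tested.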
